A study of Mus musculus with 56 samples.

Results

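The genes described here encode the motors and the track of axonal transport: kinesins and their light chains, the subunits of cytoplasmic dynein and of its cofactor dynactin, and the alpha-, beta- and gamma-tubulins. They were taken by their mouse symbols, which begin with Kif, Klc, Dync, Dynl or Dctn or name a numbered tubulin, and 6 pseudogenes whose symbols end in -ps were left out. The rule found 87 genes among the 43629 Ensembl gene IDs counted in each library. They comprised 48 kinesin, 16 dynein, 6 dynactin and 17 tubulin genes, and they took 1.45 to 2.05% of the counts of whole spinal cord (median 1.85%) and 1.70 to 2.83% of the counts of motor neuron TRAP libraries (median 2.20%).

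Kinesins carry most of their cargo towards the plus ends of microtubules, which point to the axon terminal, while dynein with dynactin carries cargo back to the cell body. The tracks are polymers of alpha- and beta-tubulin, and gamma-tubulin starts new ones. Motor neurons have some of the longest axons of the body, and mutations of human KIF5A, DCTN1 and TUBA4A are found in amyotrophic lateral sclerosis or related motor neuron disease.

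All mice carried the Chat bacTRAP transgene (line DW167), which puts a tagged ribosomal protein into cholinergic neurons, so that ribosome-bound mRNA of motor neurons can be pulled out of a spinal cord lysate (MN-TRAP), and part of each lysate gave the whole cord RNA. The labels name cervical spinal cord. Other cholinergic neurons of the cord carry the tag too. The mice were females of 9 or 14 weeks in 3 genotypes: Chat bacTRAP alone, Chat bacTRAP with wild-type human TDP-43 (hTDP-43 WT, line 3cPtrc/J), and Chat bacTRAP with the A315T mutant of human TDP-43 (hTDP-43 A315T, line 95Balo/J). Both human transgenes were driven by the prion promoter, which is active well beyond motor neurons, and each mutant or wild-type transgene was present as 1 line, so that genotype and line cannot be told apart. The study took 9 weeks as pre-symptomatic and 14 weeks as early symptomatic for hTDP-43 A315T.

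There were 25 MN-TRAP and 31 cord libraries in 12 groups. At 14 weeks the MN-TRAP groups held 4 hTDP-43 A315T, 5 hTDP-43 WT and 4 Chat bacTRAP libraries, and the cord groups 4, 5 and 5. At 9 weeks they held 5, 3 and 4 MN-TRAP and 5, 6 and 6 cord libraries. Nothing in the labels ties a library to an animal, so the p-values measure the spread between libraries. Total counts ran from 17493897 to 86654485 in cord and from 472447 to 255802240 in MN-TRAP, where 3 libraries held fewer than 3000000.

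Of the motor neuron markers all 8 were higher in MN-TRAP (median log2 difference 3.20), and all 10 oligodendrocyte (median -2.33), 8 astrocyte (-2.05), 7 microglia (-1.99) and 5 endothelial markers (-1.04) were lower. The summed oligodendrocyte markers reached 9129 to 22003 CPM (counts scaled to a common library total) in 4 MN-TRAP libraries, against a median of 3238 over all 25 and 19883 to 31577 in cord. These 4 were replicates 2 and 3 of hTDP-43 WT at 14 weeks, replicate 1 of Chat bacTRAP at 14 weeks and replicate 2 of Chat bacTRAP at 9 weeks.

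Some MN-TRAP libraries held values unlike those of other libraries with the same label. Why was not tested. The pseudogene Lamr1-ps1 stood at 0.480 to 2.93 CPM in all 18 hTDP-43 A315T libraries and at no more than 0.0398 CPM in 35 of the 38 control libraries, but at 1.11 to 1.69 CPM in the libraries labelled hTDP-43 WT replicate 5 at 14 weeks, hTDP-43 WT replicate 3 at 9 weeks and Chat bacTRAP replicate 4 at 9 weeks. The first of these was nearly the same as hTDP-43 A315T replicate 3 at 14 weeks (1.31 chi-square units per gene) and the last as hTDP-43 A315T replicate 5 at 9 weeks (1.90), while the next closest of 231 pairs with sufficient depth stood at 9.48. Chat bacTRAP replicate 4 at 14 weeks held Y-linked genes at 81.6 CPM, against at most 0.828 in any other library, although all mice were described as female. Results that turn on these libraries are given with and without them.

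Levels are given as the deposited normalized counts, which are counts per library divided by a size factor for its depth. Differences are log2 values ± standard error (SE) from edgeR's quasi-likelihood test over all 56 libraries, in which 18838 genes and 81 of the 87 transport genes had enough counts. The other 6 were Kif2b (0 counts in all), Kif12 (7), Tuba3b (14), Tuba3a (33), the antisense gene Kif16bos (86) and Dynlt1c (112). Adjusted p-values are Benjamini-Hochberg values over all 18838 genes. In bulk RNA, fewer cells of a type and less RNA per cell cannot be told apart.

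Several of these genes are near-copies, and how far reads tell them apart bears on every value below. The tubulins are most alike in the body of the coding sequence and least alike at its end, which encodes the C-terminal tail where tubulins are glutamylated. The last 60 coding bases are shown for Tubb3, Tubb2a, Tubb2b and Tubb4a, with the stop codon, from GRCm38 and its Ensembl annotation. Capitals in the beta-tubulins mark bases unlike those of Tubb3 in the alignment, including bases opposite a gap.
Tubb3: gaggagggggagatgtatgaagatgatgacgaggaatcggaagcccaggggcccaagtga
Tubb2a: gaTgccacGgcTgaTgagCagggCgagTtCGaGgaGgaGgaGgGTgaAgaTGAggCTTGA
Tubb2b: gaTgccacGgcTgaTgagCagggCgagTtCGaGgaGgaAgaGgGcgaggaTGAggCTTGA
Tubb4a: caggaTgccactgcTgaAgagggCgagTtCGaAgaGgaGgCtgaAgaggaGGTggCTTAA

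These stretches lie in the last coding exon, exon 4, of Tubb3 (chr8:123421623-123421682, plus strand), Tubb2a (chr13:34074468-34074527, minus strand), Tubb2b (chr13:34127471-34127530, minus strand) and Tubb4a (chr17:57080690-57080749, minus strand). Over 60 bases, Tubb2a had 24, Tubb2b 22 and Tubb4a 20 bases unlike Tubb3. Over the whole coding sequence Tubb3 was 75.7 to 86.2% identical to the other beta-tubulins, while Tubb2a and Tubb2b were 96.5% identical to each other. Of the 50-base words in the exons, 49.6% of Tubb2a and 36.9% of Tubb2b also occurred in another gene, so those counts are uncertain.

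Among the alpha-tubulins the copies are closer still. The coding sequences of Tuba1a and Tuba1b were 98.3% identical, those of Tuba1a and Tuba4a 85.2%. In Tuba1a 72.9%, in Tuba1b 66.7% and in Tuba1c 52.7% of the 50-base words were shared with another gene, so the split of counts among these 3 is uncertain.

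The first question was which transport genes are higher in MN-TRAP than in whole cord. MN-TRAP holds ribosome-bound RNA and cord the RNA of the whole lysate, motor neurons included. Cell type and ribosome binding therefore cannot be told apart in these differences. Dynein-1, dynactin and tubulin genes were mostly higher in MN-TRAP and kinesin genes mostly lower, and within several pairs of close relatives 1 was higher and the other lower. Of the 81 tested genes, 34 were higher and 35 lower at an adjusted p below 0.05, averaged over the 6 combinations of genotype and age, and 12 did not pass. Over all genes tested, 31.6% were higher and 43.8% lower, so the shares here (42.0% and 43.2%) were above that background for higher genes and near it for lower ones. At a difference of 2-fold or more, 16 were higher and 19 lower, where 10.4% and 26.1% of all genes were. The median log2 difference was -0.05, against -0.17 for all genes.

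By kind, 9 of 45 kinesin genes were higher and 28 lower (median -0.56), 9 of 15 dynein genes were higher and 4 lower (0.25), 5 of 6 dynactin genes were higher and none lower (0.51), and 11 of 15 tubulin genes were higher and 3 lower (1.00). Of the 34 enriched genes 28 were above cord in all 6 combinations of genotype and age, and of the 35 depleted genes 22 were below it in all 6. In 60 of the 69 the call held when each library in turn was left out. These counts were not made over all genes, so they do not set transport genes apart from others.

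**Figure D1:**
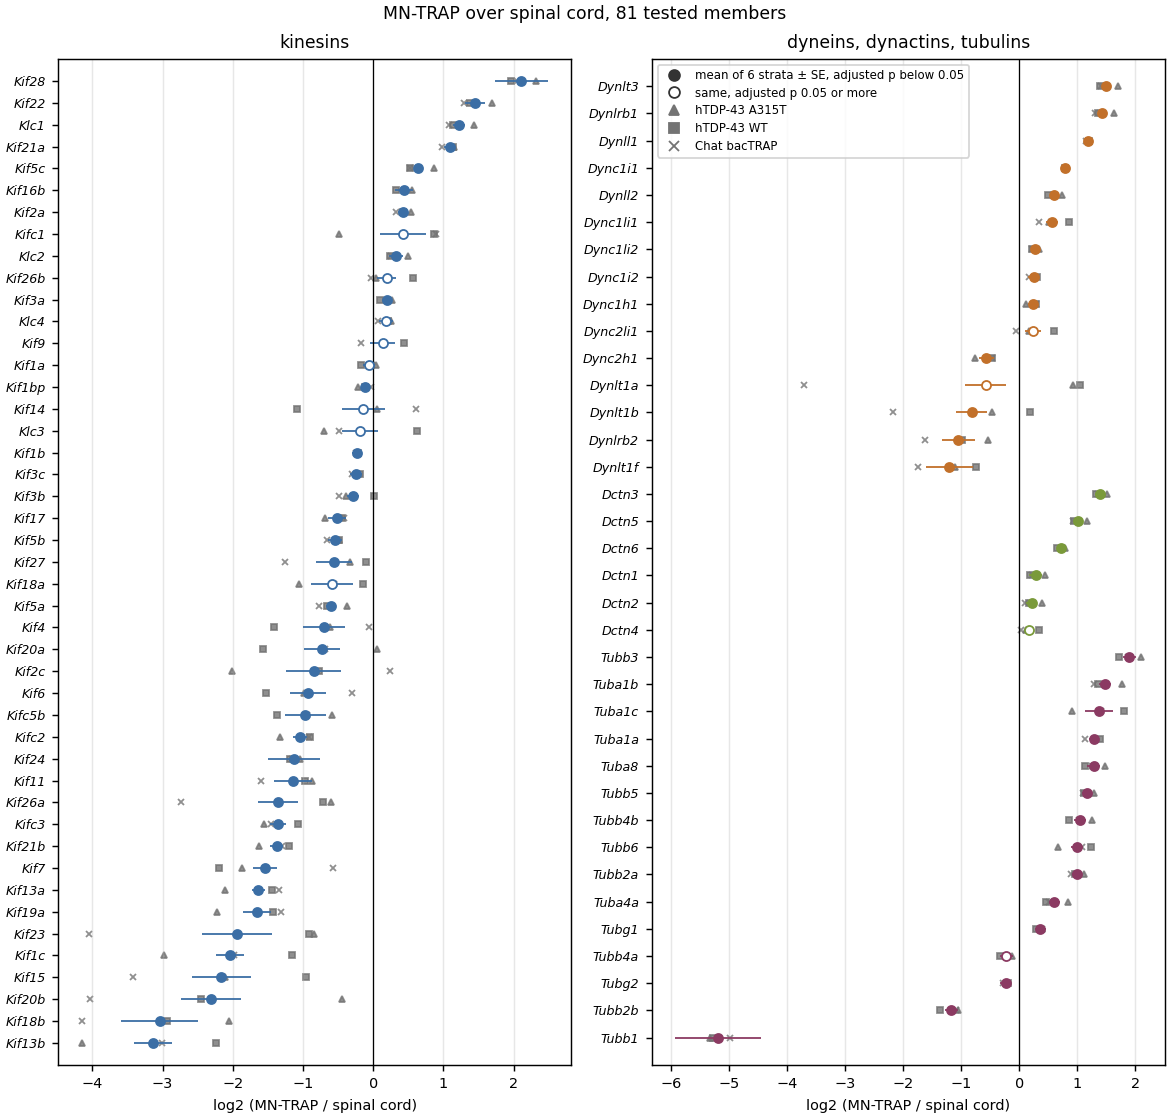
Log2 difference between MN-TRAP and spinal cord (horizontal axis) for the 81 tested genes, kinesins on the left and dyneins, dynactins and tubulins on the right. Large circles are the average of the 6 combinations of genotype and age with its SE, filled where the adjusted p was below 0.05, and grey marks are the 3 genotypes. Most kinesins lie left of 0 (28 lower, 9 higher) and most tubulins right of it (11 higher, 3 lower).

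Kinesin-1 is the main motor of fast anterograde transport, built of 2 heavy chains (Kif5a, Kif5b or Kif5c) and 2 light chains that hold cargo. Its heavy chains divided between the fractions. Kif5c, found mainly in neurons, ran from 15342 to 29724 normalized counts in MN-TRAP (median 24542) and from 13094 to 24101 in cord (median 15352). It was higher in MN-TRAP by 0.64 ± 0.06 (adjusted p = 2.84e-13), with overlapping ranges. Kif5a, the neuronal heavy chain mutated in human motor neuron disease, went the other way: 10768 to 24786 in MN-TRAP (median 18192) and 21814 to 41856 in cord (median 29057). It was lower by -0.60 ± 0.07 (adjusted p = 1.37e-10), and 22 of the 25 MN-TRAP libraries were below every cord library.

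Kif5b, the heavy chain of most cell types, was also lower, at 1698 to 6387 in MN-TRAP (median 3180) and 3015 to 10814 in cord (median 4813), a difference of -0.54 ± 0.10 (adjusted p = 7.63e-06). In the 4 libraries rich in oligodendrocyte RNA, Kif5b ran from 4307 to 6387 normalized counts, against 1698 to 4409 in the other 21. Per kilobase of exon, Kif5c made up a median of 52.5% of the 3 heavy chains in MN-TRAP (range 37.5 to 60.1%) and 31.5% in cord (27.3 to 37.5%). Kif5a made up 40.2% in MN-TRAP and 59.6% in cord, so the order of these 2 was reversed between the fractions.

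Among the light chains, Klc1 was the strongest. It ran from 27559 to 101960 in MN-TRAP (median 53641) and from 16293 to 30095 in cord (median 24827), and 23 of 25 MN-TRAP libraries were above every cord library. The difference was 1.22 ± 0.09 (adjusted p = 1.01e-17), and Klc1 was 76.4% of the light chains per kilobase in MN-TRAP and 64.4% in cord. Klc2 was higher by 0.33 ± 0.10 (adjusted p = 0.00316), while Klc3 (-0.19 ± 0.25) and Klc4 (0.18 ± 0.10) did not pass. Klc1 was lower in the libraries rich in oligodendrocyte RNA (median 31006) than in the others (54958).

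Kinesin-2 motors work as Kif3a with Kif3b or Kif3c, or as a pair of Kif17, in cilia and in axons and dendrites. Only small differences were measured: Kif3a 0.19 ± 0.07, Kif3b -0.28 ± 0.09, Kif3c -0.24 ± 0.09 and Kif17 -0.51 ± 0.13, all past the test. The call for Kif3a was lost under median-ratio scaling, in DESeq2 and without the Lamr1-ps1 libraries.

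Of the 8 kinesin-3 genes 2 were higher and 4 lower. Kif1a, the motor of synaptic vesicle precursors, ran from 7415 to 23549 in MN-TRAP (median 14798) and from 11400 to 22868 in cord (median 16898). The difference of -0.05 ± 0.09 did not pass (adjusted p = 0.58), and the ranges overlapped almost wholly. Kif1b, a close relative that carries the same cargo, was slightly lower (-0.23 ± 0.07, adjusted p = 0.00323). Kif16b, which moves endosomes, was higher by 0.44 ± 0.13, a call lost without replicate 3 of hTDP-43 WT at 9 weeks (adjusted p = 0.131).

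Other kinesin-3 genes fell further. Kif1c, a carrier of vesicles, ran from 152 to 4065 in MN-TRAP (median 354) and from 1532 to 3972 in cord (median 2570), a difference of -2.04 ± 0.20 (adjusted p = 3.66e-13). All but 2 MN-TRAP libraries lay below every cord library, and the highest value was in replicate 3 of hTDP-43 WT at 14 weeks. Kif13b, a carrier of membrane cargo, ran from 0 to 135 in MN-TRAP (median 19.5) and from 55.7 to 581 in cord (median 307), at -3.13 ± 0.27 (adjusted p = 3.21e-15) or 8.78-fold lower. Kif13a, its close relative, was at 222 to 1057 against 988 to 1596, a difference of -1.63 ± 0.10 (adjusted p = 1.99e-21).

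The medians of these 3 genes were higher in the MN-TRAP libraries rich in oligodendrocyte RNA. In the 4 MN-TRAP libraries richest in it the medians were 1163 for Kif1c, 549 for Kif13a and 37.4 for Kif13b, and in the other 21 they were 327, 308 and 18.4. Single libraries did not follow the marker sum. Among the 4, Kif1c was highest (4065) in the library with the lowest sum (9129 CPM), replicate 3 of hTDP-43 WT at 14 weeks. Kif13a was highest (1057) in replicate 2 of Chat bacTRAP at 14 weeks, which is not one of the 4. The part of oligodendrocyte RNA in the differences was not tested. Kif28, a kinesin-3 gene with a median of 11.9 in MN-TRAP and 2.22 in cord, was higher by 2.11 ± 0.38, but without replicate 3 of hTDP-43 WT at 9 weeks its adjusted p was 0.984.

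In kinesin-4, close relatives differed in opposite directions. Kif21a, a motor that stops microtubule growth at the cell cortex, ran from 8289 to 25676 in MN-TRAP (median 13144) and from 4251 to 10757 in cord (median 6322). It was higher by 1.09 ± 0.08 (adjusted p = 2.03e-18), with 20 of 25 MN-TRAP libraries above every cord library. Kif21b, its paralog in neurons and immune cells, ran from 146 to 727 in MN-TRAP (median 310) and from 782 to 1281 in cord (median 980). It was lower by -1.37 ± 0.09 (adjusted p = 5.41e-19), and no MN-TRAP library reached the lowest cord library. Of all genes tested, 1.9% had all 25 MN-TRAP libraries below all 31 cord libraries, and Kif21b was the only transport gene that did. Per kilobase, Kif21b was 1.33% of the pair in MN-TRAP and 8.37% in cord.

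Among the 13 kinesins of the mitotic spindle and of cell division, 9 were lower, 1 was higher and 3 did not pass, with a median of -0.85. Among them Kif4 and Kif14 also belong to kinesin-4 and kinesin-3. Levels were low, at medians of 0 to 20.6 in MN-TRAP for 12 of them. Kif18b (-3.04 ± 0.55), Kif20b (-2.31 ± 0.43) and Kif15 (-2.16 ± 0.42) fell most. The call for Kif4 (-0.70 ± 0.30) was lost without replicate 2 of hTDP-43 WT at 9 weeks (adjusted p = 0.0963), and that for Kif2c (-0.85 ± 0.39) without several single libraries. Of the 7 markers of dividing cells, 5 were lower too. The exception was Kif22, which links chromosome arms to the spindle: it ran from 24.3 to 557 in MN-TRAP (median 281) and from 78.9 to 221 in cord (median 112), and was higher by 1.46 ± 0.14 (adjusted p = 1.69e-13). Its mean level was above cord in all 6 combinations of genotype and age.

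The other kinesins were mostly lower. Kif2a, which takes tubulin off microtubule ends, was higher (0.43 ± 0.07). The motors Kifc2 (-1.05 ± 0.10) and Kifc3 (-1.36 ± 0.12), which move towards minus ends, and Kif19a (-1.66 ± 0.20) and Kif6 (-0.93 ± 0.26), which work in motile cilia, were lower.

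**Figure D2:**
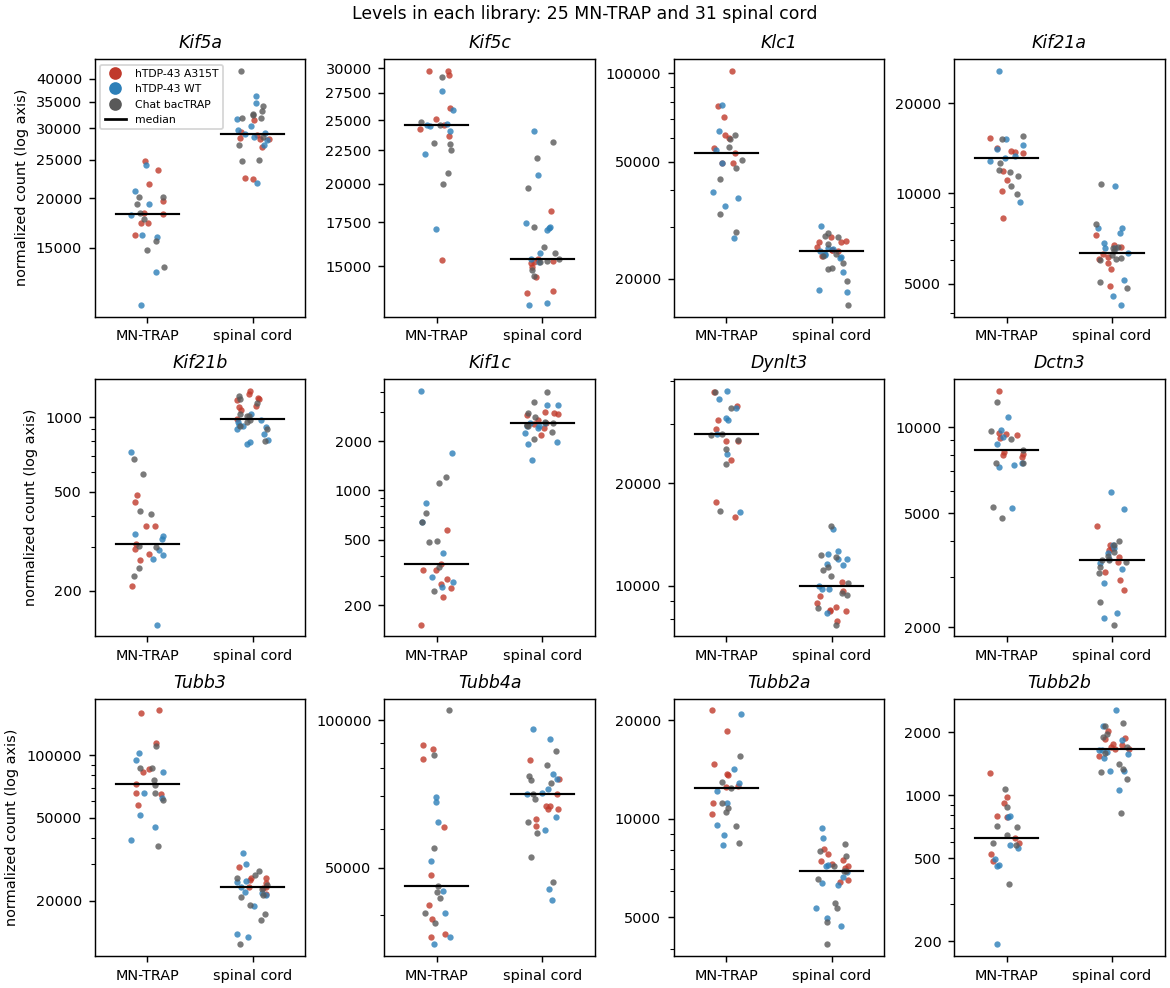
Normalized counts (vertical log axes, each panel on its own scale) of 12 transport genes in each of 25 MN-TRAP and 31 cord libraries, coloured by genotype, with the median as a black line. Tubb3 and Dynlt3 in MN-TRAP lie wholly above cord, Kif21b wholly below it, and Kif5a and Kif5c differ in opposite directions.

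Dynein-1 is the retrograde motor, and all 5 genes of its heavy, intermediate and light intermediate chains were higher, with a median of 0.27. The heavy chain Dync1h1, the motor itself, ran from 5217 to 15959 in MN-TRAP (median 6524) and from 5838 to 8996 in cord (median 6805). Its difference of 0.24 ± 0.09 (adjusted p = 0.0114) was not one of medians: 6 MN-TRAP libraries were above and 6 below every cord library. The highest was replicate 1 of hTDP-43 A315T at 14 weeks, without which the adjusted p was 0.0527. The intermediate chain Dync1i1, which is mainly neuronal, ran from 5213 to 14199 in MN-TRAP (median 7788) and from 3582 to 5888 in cord (median 5272). It was higher by 0.79 ± 0.07 (adjusted p = 6.92e-14) with 24 of 25 libraries above every cord library. Dync1i2, the intermediate chain of most tissues, differed less (0.25 ± 0.10), as did the light intermediate chains Dync1li1 (0.57 ± 0.10) and Dync1li2 (0.27 ± 0.07). Under median-ratio scaling and in DESeq2 the calls for Dync1h1 and Dync1i2 were lost.

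The light chains, which dimerise the intermediate chains and come in 3 families, split by level. Of the 8 tested, the 4 well-counted ones rose. Dynlt3, of the Tctex family, ran from 15974 to 37520 in MN-TRAP (median 27882) and from 7700 to 14973 in cord (median 9984). It was 2.83-fold higher (SE 0.07 on the log2 scale, adjusted p = 5.3e-25), and every MN-TRAP library was above every cord library. Dynlrb1, of the roadblock family, ran from 10909 to 26057 (median 16593) against 4769 to 11714 (median 6452), at 1.43 ± 0.08. The LC8 chains Dynll1 (1.18 ± 0.06) and Dynll2 (0.60 ± 0.05) rose as well. The ciliary or rarely counted Dynlrb2 (-1.05 ± 0.29), Dynlt1b (-0.82 ± 0.28) and Dynlt1f (-1.21 ± 0.41) were lower, and Dynlt1a (-0.58 ± 0.35) did not pass.

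The Dynlt1 genes are near-copies, as their first 60 coding bases show. The capital marks the base of Dynlt1b unlike Dynlt1a, and Dynlt1c and Dynlt1f had the same 60 bases as Dynlt1a.
Dynlt1a: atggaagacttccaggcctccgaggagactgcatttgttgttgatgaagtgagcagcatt
Dynlt1b: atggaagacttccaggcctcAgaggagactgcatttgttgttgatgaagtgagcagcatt

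Of their 50-base words, 63.0% in Dynlt1a, 83.2% in Dynlt1b, 84.4% in Dynlt1c and 88.6% in Dynlt1f were shared with another gene, and their counts are uncertain. The dynein-2 genes, which serve transport inside cilia, were lower in the heavy chain Dync2h1 (-0.57 ± 0.13) and did not pass in the light intermediate chain Dync2li1 (0.24 ± 0.14).

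Dynactin couples dynein to its cargo, and its smaller subunits rose most. Dctn3, of the shoulder, ran from 4822 to 13414 in MN-TRAP (median 8293) and from 2045 to 5927 in cord (median 3444), and was higher by 1.40 ± 0.09 (adjusted p = 1.17e-20). Dctn5, of the pointed end of the dynactin filament, ran from 4899 to 11222 (median 7207) against 3180 to 4666 (median 3774), at 1.02 ± 0.06 (adjusted p = 4.76e-22), with no overlap. Dctn6, beside it, was higher by 0.73 ± 0.06. Dctn5, Dynlt3 and Tubb3 were the 3 transport genes with all MN-TRAP libraries above all cord libraries, where 2.53% of all genes were.

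Dctn1, the long arm that touches the microtubule and a gene mutated in human motor neuron disease, ran from 4569 to 27780 in MN-TRAP (median 9922) and from 3771 to 13223 in cord (median 8816). Its difference of 0.28 ± 0.12 (adjusted p = 0.0253) was lost without any 1 of 5 libraries (adjusted p 0.0510 to 0.0657), which were replicate 3 of hTDP-43 A315T, replicates 2 and 3 of hTDP-43 WT and replicate 4 of Chat bacTRAP in MN-TRAP at 9 weeks and replicate 5 of Chat bacTRAP in cord at 14 weeks. Dctn2, which holds dynactin together, was higher by 0.22 ± 0.09, and its call was lost without 4 of these 5, replicate 3 of hTDP-43 A315T being the exception (adjusted p 0.0542 to 0.0883). Dctn4 (0.16 ± 0.08) did not pass. The calls for Dctn1 and Dctn2 were also lost under median-ratio scaling and in DESeq2.

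Tubulins were the kind with the highest median difference (1.00). Tubb3, the beta-tubulin of neurons, ran from 36827 to 164599 in MN-TRAP (median 73065) and from 12364 to 33971 in cord (median 23204). It was 3.74-fold higher (1.90 ± 0.12, adjusted p = 2e-20), and no cord library reached the lowest MN-TRAP library. Per kilobase it was the highest of all transport genes in MN-TRAP (median 39114 normalized counts per kilobase) and the third in cord (12422).

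Tubb4a, a beta-tubulin of oligodendrocytes and neurons, ran from 34948 to 104735 in MN-TRAP (median 45987) and from 43031 to 95810 in cord (median 70697). Its difference of -0.22 ± 0.11 did not pass (adjusted p = 0.0645), but it passed in DESeq2 (-0.32, adjusted p = 0.00393), under median-ratio scaling and in limma-voom (-0.44). Its median was 53340 in the 4 libraries rich in oligodendrocyte RNA and 45987 in the other 21. As a share of all beta-tubulin counts per kilobase, Tubb4a was 25.3% in MN-TRAP (20.8 to 45.0%) and 54.5% in cord (50.8 to 63.0%), and Tubb3 was 46.1% (35.9 to 53.0%) and 21.6% (18.1 to 23.2%). The shares of both genes did not overlap between the fractions.

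Tubb2a and Tubb2b, close copies on chromosome 13, differed in opposite directions. Tubb2a ran from 8335 to 21485 in MN-TRAP (median 12398) and from 4128 to 9342 in cord (median 6923), higher by 0.99 ± 0.08 (adjusted p = 8.45e-16). Tubb2b, known from developing and glial cells, ran from 193 to 1278 (median 624) against 818 to 2551 (median 1662), lower by -1.17 ± 0.11 (adjusted p = 6.17e-14). Tubb5 (1.17 ± 0.09), Tubb4b (1.05 ± 0.10) and Tubb6 (1.00 ± 0.11), which are widely expressed, were higher. Tubb1, the beta-tubulin of platelets, was listed at 0 to 17.8 in cord and at no more than 0.722 in MN-TRAP.

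All 5 tested alpha-tubulins rose. Tuba1a, the main alpha-tubulin of neurons, ran from 15066 to 51261 in MN-TRAP (median 23833) and from 7710 to 16413 in cord (median 11369), a difference of 1.29 ± 0.08 (adjusted p = 4.73e-20). Tuba1b differed by 1.48 ± 0.10, Tuba1c by 1.37 ± 0.24 and Tuba8 by 1.28 ± 0.11. Tuba4a, the isotype mutated in human amyotrophic lateral sclerosis, rose least, from 7162 to 18054 in cord (median 13441) to 9354 to 37087 in MN-TRAP (median 17692), by 0.60 ± 0.10 (adjusted p = 2.69e-07). Of the gamma-tubulins, Tubg1 was higher (0.36 ± 0.10) and Tubg2 lower (-0.23 ± 0.09, lost without replicate 3 of hTDP-43 WT at 9 weeks, adjusted p = 0.0621).

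**Figure D3:**
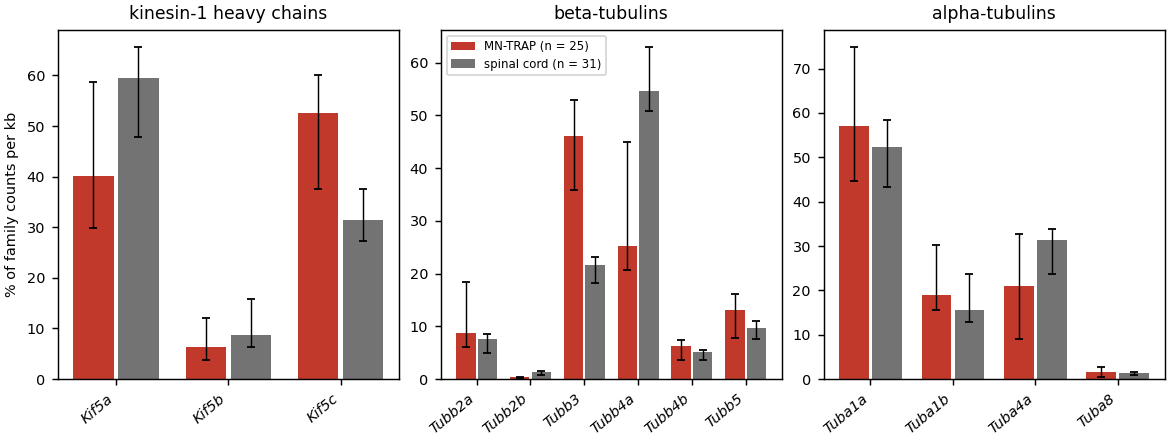
Share of each gene in the counts per kilobase of its family (vertical axis, percent), for kinesin-1 heavy chains, beta-tubulins and alpha-tubulins with at least 1% in a fraction. Bars are medians over 25 MN-TRAP (red) and 31 cord (grey) libraries and lines run from the lowest to the highest library. Kif5c and Kif5a change places, as do Tubb3 and Tubb4a.

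A feature that the choice of genes did not use was exon length. The 19 transport genes with less than 2500 exon bases had a median log2 difference of 0.99 (11 higher, 5 lower), the 29 of 2500 to 5000 bases 0.22, the 24 of 5000 to 10000 bases -0.57 (7 higher, 15 lower) and the 9 longer ones -0.23. The medians of all genes in the same ranges were 0.05, -0.10, -0.29 and -0.44. Spearman's rho between length and difference was -0.397 over the 81 genes and -0.127 over 18708 genes, a description across genes that share libraries. Short genes here are mostly tubulins and light chains and long ones mostly kinesins, so length and kind cannot be told apart.

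**Figure D4:**
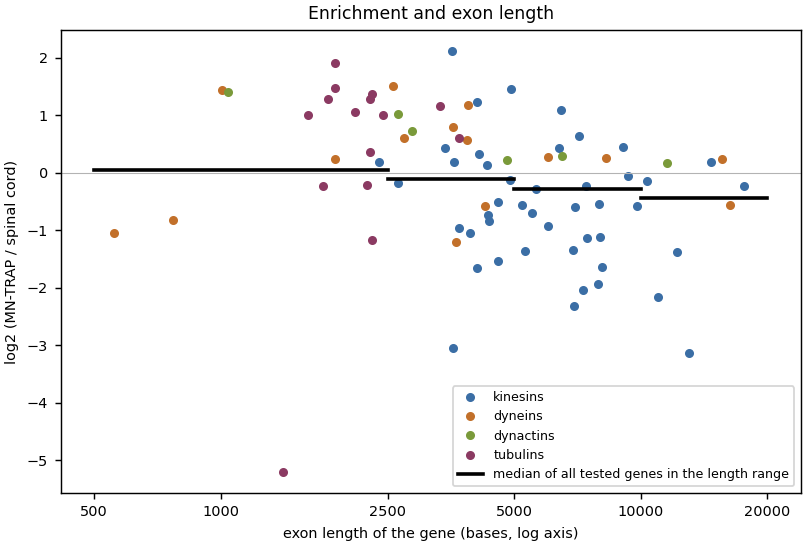
Exon length of each gene (horizontal log axis, bases) against its log2 difference between MN-TRAP and cord, coloured by kind. Black lines are the medians of all tested genes in 4 length ranges, and the 19 transport genes under 2500 bases have a median of 0.99.

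The partners of these motors, from 3 lists of genes outside the rule, did not move one way. Of 32 motor adaptors and regulators 13 were higher and 12 lower (median 0.06), with Ndel1, a dynein regulator, higher by 0.92 and its relative Nde1 lower by -2.33. Of 27 microtubule-associated proteins 14 were higher and 10 lower (0.20): Stmn2, which binds free tubulin in growing axons, rose by 2.12, and Map7, which recruits kinesin-1, was lower by -2.09. Of 31 genes that fold, modify or sever tubulin 8 were higher and 16 lower (-0.27), and the tubulin chaperone Tbca rose by 2.39.

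The next question was whether mutant TDP-43 altered these genes in motor neurons. At 14 weeks in MN-TRAP, the main motors and tubulins were not distinguishable between hTDP-43 A315T and either control, and the genes that passed had low counts or rested on 1 library. A gene was called at an adjusted p below 0.05 and a difference of 2-fold or more.

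Kif5a stood at 17321, 18192, 16161 and 19690 normalized counts in the 4 hTDP-43 A315T libraries, at 18161, 13026, 19319, 16100 and 15945 in hTDP-43 WT, and at 17707, 19375, 20068 and 15568 in Chat bacTRAP. The groups overlapped, and the log2 difference from Chat bacTRAP was 0.08 and from hTDP-43 WT 0.10. Kif5c differed by 0.28 and 0.02, Kif1a by 0.15 and 0.47, Klc1 by 0.48 and 0.36, and Dync1i1 by 0.20 and 0.07 from Chat bacTRAP and hTDP-43 WT, and none of these passed.

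Dync1h1 was at 15959, 5592, 6102 and 6263 in hTDP-43 A315T, at 7036, 5217, 10850, 6146 and 5956 in hTDP-43 WT and at 11824, 10981, 13229 and 6524 in Chat bacTRAP. Tubb3 was at 164599, 57550, 65705 and 65302, at 62271, 38967, 94532, 45170 and 65972, and at 71675, 61174, 111418 and 75685 in the same order of groups. In both genes replicate 1 of hTDP-43 A315T was far above its group and the groups overlapped, with differences from Chat bacTRAP and hTDP-43 WT of -0.21 and 0.27 for Dync1h1 and 0.26 and 0.52 for Tubb3. Dctn1 (0.49 and 0.65), Tuba4a (0.52 and 0.54) and Kif5b (-0.23 and -0.68) did not pass either.

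Between hTDP-43 A315T and Chat bacTRAP at 14 weeks, 8 of 81 transport genes were called, 7 higher and 1 lower, which is 9.88% where 10.4% of all genes were called. All 8 had means under 100 normalized counts. When MN-TRAP libraries were fitted without the cord libraries, which gives them their own estimate of the spread, neither any of the 81 nor any other of the 18838 genes was called by edgeR (8 of the 81 at an unadjusted p below 0.05), and limma-voom called none (5 at an unadjusted p below 0.05). DESeq2 over all libraries called 11.

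The lowest adjusted p was that of Dynlt1a, a dynein light chain. It stood at 18.5, 58.2, 11.5 and 32.3 in hTDP-43 A315T, at 26.6, 1.58, 11.1, 19.8 and 7.52 in hTDP-43 WT and at 0 in all 4 Chat bacTRAP libraries. Against a floor of 3 counts over the Chat bacTRAP group it was at least 18.1-fold higher in hTDP-43 A315T and at least 5.82-fold higher in hTDP-43 WT (adjusted p = 0.000116 and 0.000586), and no library of these groups overlapped with Chat bacTRAP. These bounds pool the counts of a group. The bound for hTDP-43 WT includes replicate 5, a Lamr1-ps1 library of 255802240 counts, and was not computed without it. At 9 weeks Chat bacTRAP held 23.1, 5.06, 0 and 18.7. The call was gone when MN-TRAP was fitted alone (adjusted p = 0.160), and reads of its near-copies can be counted here.

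Kif26a, a kinesin without motor activity, was at 7.38, 11.1, 36.7 and 33.6 in hTDP-43 A315T, at 0, 38.0, 13.8, 39.5 and 24.6 in hTDP-43 WT and at 1.10, 0, 0 and 5.82 in Chat bacTRAP. It was higher in hTDP-43 A315T than in Chat bacTRAP by 4.19 ± 1.03 (adjusted p = 0.00587), without overlap. Kif7, a regulator of hedgehog signalling at the cilium, was at 15.5, 27.2, 20.6 and 9.42 in hTDP-43 A315T, at 48.2, 15.8, 5.52, 24.0 and 23.4 in hTDP-43 WT and at 104, 60.7, 135 and 34.9 in Chat bacTRAP. It was lower by -2.19 ± 0.43 (adjusted p = 0.00112), and no hTDP-43 A315T library reached the lowest Chat bacTRAP library.

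The division kinesins Kif20b and Kif23 were at 0 in all 4 Chat bacTRAP libraries. Kif20b was at 11.8, 0, 9.16 and 24.2 in hTDP-43 A315T, at least 6.83-fold higher (adjusted p = 0.00656), and overlapped with Chat bacTRAP at 0. Kif23 was at 2.21, 54.5, 0 and 0, at least 8.44-fold higher (adjusted p = 0.0136), a value carried by replicate 2, without which the adjusted p was 0.305. The ciliary genes Dynlrb2 (2.80 ± 0.88, adjusted p = 0.0267) and Kif27 (2.41 ± 0.78, adjusted p = 0.0313) and the light chain Dynlt1b (2.81 ± 0.94, adjusted p = 0.0378) lost their calls without 1 library. Dynlrb2 was at 37.6, 66.9, 25.2 and 35.0 in hTDP-43 A315T and at 0, 0, 0 and 40.7 in Chat bacTRAP, so that 1 Chat bacTRAP library, the one with Y-linked counts, lay within the other group. For Dynlrb2 these were replicate 2 of hTDP-43 A315T and replicates 1 and 3 of Chat bacTRAP (adjusted p 0.0616 to 0.147), for Kif27 replicate 2 of hTDP-43 A315T and replicates 1, 2 and 3 of Chat bacTRAP (0.0512 to 0.137), and for Dynlt1b replicates 2 and 3 of hTDP-43 A315T and replicates 1, 2 and 3 of Chat bacTRAP (0.0582 to 0.209). Without replicate 2 of hTDP-43 A315T 5 genes were called, and without replicate 4 of Chat bacTRAP, the library with Y-linked counts, 15.

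Beside these values, 9 of 10 oligodendrocyte markers were lower in hTDP-43 A315T than in Chat bacTRAP at 14 weeks (median -1.34) and all 10 lower than in hTDP-43 WT (-1.76). Astrocyte markers were lower than in Chat bacTRAP in 3 of 8 (median -1.28), skeletal muscle markers in 4 of 5 (-4.71), microglia markers in 2 of 7 with 1 higher (-1.35), endothelial markers in 1 of 5 (-1.68) and ependymal markers in 1 of 6 (-0.63), while motor neuron markers were higher in 2 of 8 (0.40) and markers of dividing cells did not pass (-0.27). Kif13a was lower than in Chat bacTRAP by -0.75 ± 0.25 (adjusted p = 0.0343), at 418, 228, 350 and 225 against 487, 1057, 393 and 390. The highest value was in replicate 2 of Chat bacTRAP, a library of 2414523 counts, without which the adjusted p was 0.271. That library was not one of the 4 rich in oligodendrocyte RNA. The part of these other cell types in the differences was not tested.

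**Figure D5:**
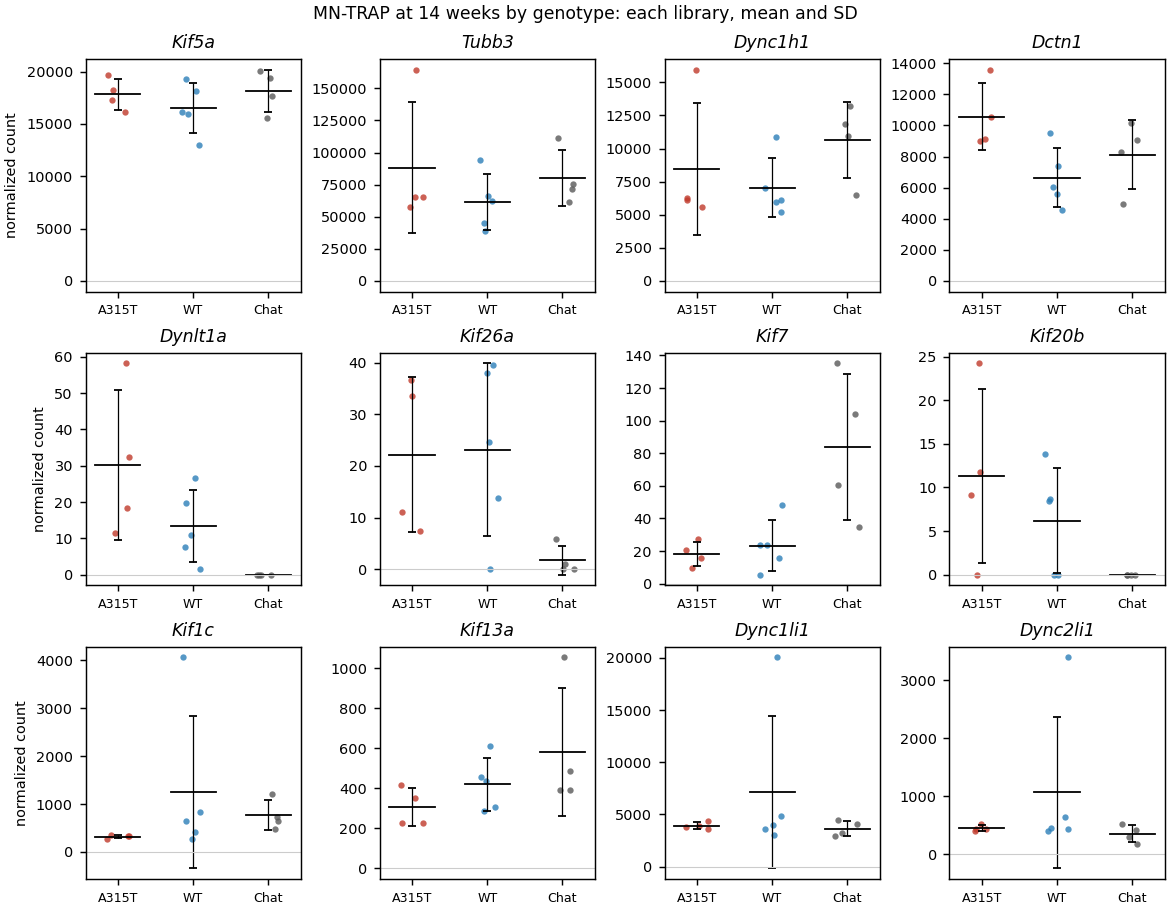
Normalized counts (vertical axes, each panel on its own scale) of 12 transport genes in each MN-TRAP library at 14 weeks, by genotype (4 hTDP-43 A315T, 5 hTDP-43 WT and 4 Chat bacTRAP libraries), with the mean and SD in black. Kif5a overlaps among the groups, Dynlt1a is at 0 in all Chat bacTRAP libraries, and 1 hTDP-43 WT library reaches 4065 for Kif1c, 20076 for Dync1li1 and 3399 for Dync2li1.

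Between hTDP-43 A315T and hTDP-43 WT at 14 weeks, 2 of 81 were called (5.36% of all genes), Kif1c (-1.93 ± 0.48, adjusted p = 0.0101) and Dync2li1 (-1.20 ± 0.34, adjusted p = 0.0238). Kif1c was at 327, 327, 268 and 354 in hTDP-43 A315T, at 413, 838, 4065, 642 and 276 in hTDP-43 WT and at 1214, 644, 727 and 483 in Chat bacTRAP. Dync2li1 was at 442, 405, 444 and 530, at 639, 399, 3399, 443 and 451, and at 421, 292, 186 and 518. In both the third hTDP-43 WT library was far above the rest, as it was for the light intermediate chain Dync1li1, which passed at less than 2-fold (-0.86 ± 0.26, adjusted p = 0.0325).

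That library is replicate 3, one of the 4 rich in oligodendrocyte RNA, at 9129 CPM of summed markers. Replicate 2 of the same group held 22003 CPM and lay far below replicate 3 for each of these genes. The part of oligodendrocyte RNA in these values was not tested. Without replicate 3 the adjusted p was 0.261 for Kif1c, 0.835 for Dync2li1 and 0.973 for Dync1li1, and none of the 81 was called. Without replicate 2 of hTDP-43 WT 5 were called and without replicate 4 of that group 4, and the count was 1 without replicate 1 or replicate 2 of hTDP-43 A315T and 4 without the Lamr1-ps1 libraries. MN-TRAP fitted alone called none (10 at an unadjusted p below 0.05), as did limma-voom (10).

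Between the 2 controls at 14 weeks, hTDP-43 WT and Chat bacTRAP, 15 of 81 were called (18.5%, where 13.2% of all genes were), 11 of them upward and 4 downward. This is the largest count of the 6 genotype comparisons in MN-TRAP, and it involves no mutant. Dynlt1a and Kif26a were again higher and Kif7 lower (-1.75 ± 0.39, adjusted p = 0.00174). These comparisons share their Chat bacTRAP libraries with those above. Dync1li1 (1.07 ± 0.26) and Dync2li1 (1.66 ± 0.36) were higher and rested on the same replicate 3, without which the adjusted p was 0.292 and 0.0805. The other upward calls were the light chains Dynlrb2 and Dynlt1b, the division kinesins Kif11, Kif18b and Kif20b, the ciliary Kif27 and Kif26b, which acts in development. The other downward calls were Kif14, Kif6 and Kifc1. Kifc1, a spindle motor that shares 39.7% of its 50-base words with another gene, turned from -2.69 to 2.80 without replicate 2 of Chat bacTRAP. None of the 81 was called when MN-TRAP was fitted alone (16 at an unadjusted p below 0.05).

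At 9 weeks, the pre-symptomatic age, almost no transport gene differed by genotype in MN-TRAP. Between hTDP-43 A315T and Chat bacTRAP none was called (0.541% of all genes were; 11 of 81 at an unadjusted p below 0.05), and DESeq2 and limma-voom called none. Between hTDP-43 WT and Chat bacTRAP none was called either (0.223% of all genes; 10 at an unadjusted p below 0.05, none by DESeq2 or limma-voom), but 8 were without replicate 3 of hTDP-43 WT and 4 without the Lamr1-ps1 libraries. Between hTDP-43 A315T and hTDP-43 WT 1 was called (2.14% of all genes): Kif20a, a kinesin of cytokinesis, at 69.8, 20.6, 25.4, 62.1 and 15.4 against 0, 0 and 8.90. It did not overlap between the groups (3.23 ± 0.92, adjusted p = 0.0432), and without replicate 2 of hTDP-43 WT the adjusted p was 0.961. That count was 0 without replicate 1 or 4 of hTDP-43 A315T or replicate 1 or 2 of hTDP-43 WT, 3 without replicate 3 of hTDP-43 A315T and 11 without replicate 3 of hTDP-43 WT. Without all Lamr1-ps1 libraries it was 10. The share of all genes is not given for fits with left-out libraries, so these counts do not set transport genes apart from other genes.

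From 9 to 14 weeks in MN-TRAP, no transport gene was called in hTDP-43 A315T (0.0106% of all genes; 5 at an unadjusted p below 0.05). In Chat bacTRAP 4 were called (5.15% of all genes), all lower at 14 weeks: Dynlt1a, Kif20b, Kif23 and Kif26a. The first 3 were at 0 in every 14-week library, at least 10.5-fold lower for Dynlt1a. That bound pools the counts of the 9-week libraries, of which 3 of 4 held Dynlt1a. Among them is replicate 4, a Lamr1-ps1 library of 192686637 counts, and the bound was not computed without it. In hTDP-43 WT 7 were called (7.03% of all genes): Dync1i2, Dync2li1, Kif18b and Kif26b higher at 14 weeks and Dynlt1a, Kifc1 and Klc4 lower. Over the 3 genotypes 10 genes were called, 6 without replicate 2 and 18 without replicate 3 of hTDP-43 WT at 9 weeks, 19 without replicate 4 of Chat bacTRAP at 14 weeks and 19 without the Lamr1-ps1 libraries.

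In whole cord edgeR found no transport gene that differed by genotype or age. None was called in the 6 genotype comparisons, where 0.0212%, 0.0265%, 0.00531%, 0.0372%, 0.0212% and 0% of all genes were, or in the 3 age comparisons, where 0% were. In each comparison 0 to 3 of 81 had an unadjusted p below 0.05 in the fit over all libraries. With cord fitted without MN-TRAP none was called either, but most comparisons had more genes at an unadjusted p below 0.05. For hTDP-43 A315T against hTDP-43 WT these were 15 of 81 at 9 weeks and 7 at 14 weeks. Against Chat bacTRAP they were 5 and 7, and between the controls 0 and 4. By age, hTDP-43 WT gave 10, Chat bacTRAP 5 and hTDP-43 A315T 1. The share of all genes is not given for that fit. DESeq2 called none. Limma-voom called Kif26a, Kif18b and Kif13b in 1 genotype comparison each and none by age. At an adjusted p below 0.05 without the 2-fold limit, limma-voom passed more, with the highest count in hTDP-43 A315T against hTDP-43 WT at 9 weeks (19 higher and 7 lower of 81, where 5039 of 18838 genes passed). It passed 5 higher and 7 lower in the same comparison at 14 weeks, 6 and 2 in hTDP-43 A315T against Chat bacTRAP at 14 weeks, 4 and 2 at 9 weeks, and none between the controls at either age. By age it passed 1, in hTDP-43 A315T.

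Whether the difference between MN-TRAP and cord itself depended on genotype was tested as an interaction. Dynlt1a passed for hTDP-43 A315T against Chat bacTRAP (4.63, adjusted p = 0.00819; 0.69% of all genes passed) and for hTDP-43 WT against Chat bacTRAP (4.76, adjusted p = 0.00727; 0.403%). Kif1c passed for hTDP-43 A315T against hTDP-43 WT (-1.83, adjusted p = 0.0401; 0.648%). For Dynlt1a these are fitted values that depend on a prior count, since all Chat bacTRAP libraries at 14 weeks held 0. The call for Kif1c was lost without any 1 of 25 of the 37 libraries of these genotypes (adjusted p 0.0512 to 0.794). Limma-voom passed no transport gene. For hTDP-43 WT against Chat bacTRAP, 3 passed in DESeq2 and 4 without the Lamr1-ps1 libraries. For hTDP-43 A315T against Chat bacTRAP 2 passed without replicate 1 of hTDP-43 A315T or replicate 3 of Chat bacTRAP at 14 weeks, 3 without replicate 4 of Chat bacTRAP at 9 weeks and 6 without replicate 4 of Chat bacTRAP at 14 weeks, all of MN-TRAP. The mean log2 difference from cord of Kif1c was the least negative in hTDP-43 WT. Kif5a, Kif5c, Tubb3, Dync1h1 and Dctn1 showed the same direction of difference from cord in each of the 3 genotypes. For Dync1h1 and Dctn1 the averaged difference itself lost its call without 1 library, as given above. How many of all genes kept their direction was not counted.

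In the first of the 3 partner lists, 1 of 32 motor adaptors was higher in hTDP-43 A315T than in Chat bacTRAP at 14 weeks. This was Hook2, a dynein activator (1.94), and 1 was lower (Nde1, -1.04). Each is 3.12% of the list, below the 7.92% of all genes that were higher and the 5.98% that were lower. Among microtubule-associated proteins 5 of 27 were higher at an adjusted p below 0.05 (18.5%, where 7.92% of all genes were) and none by 2-fold, with Mapre1, which tracks plus ends, at 0.61, and the tubulin-binding Stmn1 and Stmn2 at 0.90 and 0.66. Among 31 tubulin-folding and modifying genes the chaperone Tbce alone passed (0.89), which is 3.23%, also below the 7.92% of all genes. In hTDP-43 WT against Chat bacTRAP, which shares the Chat bacTRAP libraries, 8 of 27 microtubule-associated proteins (29.6%) were higher. So were 7 of 31 tubulin-folding and modifying genes (22.6%), where 16.1% of all genes were. Between hTDP-43 A315T and hTDP-43 WT no gene of the first 2 lists was higher, and Nde1 (-1.23) and Map7 (-1.06) were lower. These are 3.12% and 3.7% of their lists, where 6.31% of all genes were lower. In the third list Ttll6 (3.10), which glutamylates tubulin, was higher (0.929% of all genes were). In the same list 3 of 31 were lower (9.68%, where 6.31% of all genes were). Among them were Agbl2 (-2.65), which removes glutamates from tubulin tails, and Spast (-0.82), which severs microtubules. All values of the partner lists are from the fit over all libraries, and other settings are not given for them. With MN-TRAP fitted alone, no gene was called for hTDP-43 A315T against Chat bacTRAP at 14 weeks. Cell type markers also differed in that comparison, as given above, and their part in the partner genes was not tested.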

How the data were processed

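Poly(A) RNA of MN-TRAP and whole cord was sequenced in 56 libraries. The authors demultiplexed reads with bcl2fastq2, aligned them to GRCm38 with STAR, counted them with featureCounts and deposited raw counts per gene. They left out libraries of low depth and outliers beforehand. The authors also deposited normalized counts, a signal in which each library is divided by 1 DESeq2 size factor. Strand use in counting is not given in the sources used here.

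Counts were tested with edgeR 4.0.16 in R 4.3.3 (quasi-likelihood test, robust, TMM, filterByExpr) in 1 model of 12 groups over 18838 genes, at an adjusted p of 0.05, with 2-fold or more for genotype and age. The study itself used DESeq2. Symbols were matched for 42462 of 43629 IDs. Exon lengths, 50-base words and sequences came from the Ensembl GRCm38 annotation (MAFFT 7.526).

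Genes named throughout were the main motors and tubulins, the smallest p-values and largest changes of each comparison, and up to 3 of each role with the highest level. Members and lists were chosen with earlier results of these data known. Alternatives were DESeq2 1.42.0, limma-voom 3.58.1 with quality weights, median-ratio scaling, no filter, MN-TRAP alone, the replicate number as a block and omitted libraries. Sequences of the alpha-tubulins are not reported here.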

Additional observations from a re-analysis of the deposited data

Results flagged for a closer look

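In 59 groups of 4 or more libraries, those of the genes compared by genotype, the library at either end was compared with the rest by Dixon's ratio, which chance alone passes in about 1 group in 20. The ratio passed in 12 groups, all of MN-TRAP at 14 weeks, a count that cannot be set against that rate.

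In hTDP-43 WT the high library was replicate 3 for Kif1c (4065 normalized counts), Dync1li1 (20076) and Dync2li1 (3399), replicate 1 for Kif27 (105) and replicate 2 for Kif23 (17.4). In hTDP-43 A315T it was replicate 1 for Dync1h1 (15959) and Tubb3 (164599) and replicate 2 for Kif23 (54.5) and Kif27 (37.1). In Chat bacTRAP it was replicate 2 for Kif13a (1057) and replicate 4 for Dynlt1b (23.3) and Dynlrb2 (40.7).

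The difference between MN-TRAP and cord differed between genotypes in 3 interaction tests (edgeR). Dynlt1a differed by 4.63 between hTDP-43 A315T and Chat bacTRAP and by 4.76 between hTDP-43 WT and Chat bacTRAP. Kif1c differed by -1.83 between hTDP-43 A315T and hTDP-43 WT. The causes were not tested.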

How the results depend on the processing

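The counts of genes higher (34) and lower (35) in MN-TRAP stayed within 1.5 times under every setting, at 30 to 35 and 33 to 36 when 1 library was left out and at 28 and 36 without the Lamr1-ps1 libraries. Genotype counts did not. Counts under other settings are given without the share of all genes, so their changes are not particular to transport genes. With MN-TRAP fitted alone, with 1 age of MN-TRAP fitted alone and with limma-voom, the 14-week counts for hTDP-43 A315T against Chat bacTRAP (8), hTDP-43 A315T against hTDP-43 WT (2) and hTDP-43 WT against Chat bacTRAP (15) and the 9-week count for hTDP-43 A315T against hTDP-43 WT (1) were all 0. The age count (10) was 0 with MN-TRAP alone and with limma-voom, 5 without the filter on low counts and 6 without the 4 libraries rich in oligodendrocyte RNA, an alternative chosen after seeing the data. In cord, limma-voom called 3 by genotype where edgeR called 0.

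DESeq2 gave 3 for the interaction of hTDP-43 A315T with Chat bacTRAP (1 in edgeR; limma-voom 0, without the Lamr1-ps1 libraries 3), 4 for hTDP-43 A315T against hTDP-43 WT at 14 weeks (without the Lamr1-ps1 libraries 4, without the oligodendrocyte-rich libraries 1) and 2 at 9 weeks. That 9-week count was 0 without the filter, 10 without the Lamr1-ps1 libraries, 3 without the oligodendrocyte-rich ones and 2 without libraries under 3000000 counts. The interaction of hTDP-43 A315T with hTDP-43 WT (1) gave 0 without the filter and with limma-voom, 5 without the Lamr1-ps1 libraries and 2 without the oligodendrocyte-rich ones. The count for hTDP-43 WT against Chat bacTRAP at 9 weeks (0) was 4 without the Lamr1-ps1 and 1 without the oligodendrocyte-rich libraries, and the age count was 19 without the former.

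Leaving out 1 library at a time gave 1 to 6 and 0 to 4 for the interactions of hTDP-43 A315T with Chat bacTRAP and with hTDP-43 WT, 5 to 15, 0 to 5 and 10 to 20 for the 3 genotype comparisons at 14 weeks in the order above, 0 to 11 and 0 to 8 for hTDP-43 A315T and Chat bacTRAP against hTDP-43 WT at 9 weeks, and 6 to 19 for age.

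The sign changed for 3 genes that passed at an adjusted p below 0.05, 2 of them by 2-fold or more (Kif23 and Kifc1). Kif23 was -0.24 in limma-voom for hTDP-43 A315T against Chat bacTRAP at 14 weeks. For hTDP-43 WT against Chat bacTRAP, Kif17 was 0.020 in limma-voom, and Kifc1 was 0.15 in limma-voom, 2.81 without libraries under 3000000 counts and -3.21 to 2.80 when 1 library was left out. The causes were not tested.

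Replicate numbers gave no clear pairing of libraries. Between MN-TRAP and cord of the same genotype and age, same-numbered libraries had a median correlation of 0.0277 (5 of 25 pairs over 0.1). Others had -0.00677 (15 of 103). Over all pairs from different groups, most of them of unlike genotype or age, the medians were 0.0108 (43 of 275 pairs over 0.1) and -0.00163 (192 of 1158). Each lysate gave both fractions, but the labels do not tell which libraries share one, so that pairing was not modelled. With the replicate number as a block, 1 gene was called for hTDP-43 A315T against hTDP-43 WT at 14 weeks, 0 at 9 weeks and 0 in their interaction, and 5 by age. Depth limits the low genes most, since 3 MN-TRAP libraries held under 3000000 counts.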
